A study of Mus musculus with 5 samples.

Results

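The protein genes of the cytosolic ribosome were described in control adipocytes and in adipocytes with a deletion of Prmt1, the gene of the arginine methyltransferase PRMT1. Members were taken by gene symbol: Rpl or Rps followed by a digit, Rplp0, Rplp1, Rplp2 and Rpsa, leaving out the S6 kinases (Rps6k) and names marked as pseudogenes. The rule found 89 of the 24531 genes in the deposited table, of which 54 had large subunit symbols and 34 small subunit symbols. By annotation, 46 of the large and 31 of the small subunit genes encode core subunits of the ribosome, 11 are paralogs or retrogene copies of a core gene, and Rps19bp1 encodes a protein that binds RPS19 and is no subunit. Among the genes that the rule misses are Fau, which encodes the small subunit protein S30 as a fusion, and Rack1, a scaffold on the small subunit, and their values are given beside the members.

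The cytosolic ribosome joins a large subunit, which forms peptide bonds, to a small subunit, which reads the messenger RNA. Cells need the ribosomal proteins of both subunits in matched amounts, and in mammals their mRNAs start with a run of pyrimidines, the TOP element, through which mTORC1 and its partner LARP1 control their translation. Ribosomal protein mRNAs are short, abundant and stable in most tissues.

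Polyadenylated RNA was sequenced from epididymal primary adipocytes, taken from C57BL/6N mice that had eaten a high-fat diet for 12 weeks. The 3 control libraries are titled Prmt1 f/f, which denotes floxed alleles, and carry the genotype tag WT. The 2 knockout libraries are titled Prmt1 FKO, with Prmt1 deleted in adipocytes only. The Cre driver, the exons removed and the age of the mice are not stated in the labels, and nor is whether each library came from its own animal, so every p-value reflects the scatter among these 5 libraries alone.

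Estimated counts per library summed to between 43580154 and 57016997. Prmt1 itself was at 34.1, 29.4 and 32.3 CPM (a count relative to the library's TMM-scaled total) in f/f, against 21.0 and 19.3 CPM in FKO (log2 fold change -0.66, SE 0.14, edgeR adjusted p = 0.0171). Prmt1 mRNA in FKO was thus at 0.632 of its f/f level in the fit, and these data hold no PRMT1 protein values. Among 14492 genes tested with edgeR's quasi-likelihood test, 25.4% were called at an adjusted p of 0.05, 11.9% higher and 13.4% lower in FKO, and the median over all genes was -0.047 on the log2 scale. Of the called genes, 47.1% were higher with TMM factors, 35.0% under upper-quartile scaling, 26.1% for unscaled library sizes, and 26.9% and 28.8% on the log2(FPKM + 0.1) and log2(FPKM + 1) scales. Those scalings shifted the median of all genes to -0.17, -0.27, -0.24 and -0.15. Markers of several other cell types differed between the groups in the same libraries. The 10 macrophage markers summed to between 930 and 1731 CPM in f/f and between 393 and 533 CPM in FKO, with 9 called lower, and the 9 mesothelial markers summed to between 56.6 and 118 CPM in f/f and between 17.0 and 26.8 CPM in FKO, with all 9 called lower. The 10 progenitor and fibroblast markers summed to between 960 and 1168 CPM in f/f and between 468 and 577 CPM in FKO, with 4 called lower, and the 10 adipocyte markers stood at 37391 to 45804 CPM in f/f and 54645 to 59847 CPM in FKO, with 3 called higher. The erythroid markers summed to between 308 and 452 CPM in f/f and between 163 and 207 CPM in FKO, with 0 called, and the B cell markers to between 8.03 and 16.2 CPM in f/f and between 3.76 and 4.56 CPM in FKO, with 1 called lower. The groups overlapped for the endothelial markers (486 to 774 CPM in f/f and 503 to 555 CPM in FKO, 0 called) and the T cell markers (5.65 to 15.2 and 2.24 to 7.94 CPM, 1 called lower). The 8 epididymal epithelium markers were at 0 in FKO and summed to between 0.357 and 6.83 CPM in f/f, with 4 at 0 there too. The part of these cells in the results below was not tested.

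Ribosomal protein mRNA took a smaller share of the FKO libraries than of the f/f libraries. The members held 1.77%, 1.55% and 2.06% of all estimated counts in f/f replicates 1 to 3, and 1.33% and 1.31% in FKO replicates 1 and 2. The groups did not overlap, and both FKO libraries lay close together. The mean was 1.79% ± 0.256 in f/f (SD, n = 3) and 1.32% ± 0.0174 in FKO (SD, n = 2), a share 1.36-fold larger in f/f. The large subunit genes held 1.03%, 0.909% and 1.19% of the counts in f/f, against 0.790% and 0.779% in FKO, 1.33-fold more in f/f. The small subunit genes held 0.742%, 0.639% and 0.872% in f/f, against 0.541% and 0.527% in FKO, 1.41-fold more in f/f. Summed CPM with TMM factors, which centre the bulk of genes, differed less, at 17146, 14951 and 18340 CPM in f/f, against 14799 and 14192 CPM in FKO, a ratio of 1.16. On that scale f/f replicate 2 came close to FKO replicate 1, although the groups still did not overlap for all members together. For the large subunit genes alone the groups overlapped narrowly, at 8771 CPM in f/f replicate 2 and 8774 CPM in FKO replicate 1. For the small subunit genes alone the groups did not overlap, at 6166 CPM in f/f replicate 2 and 6009 CPM in FKO replicate 1. In bulk RNA, fewer cells of a type that is rich in ribosomal protein mRNA and less of this mRNA per cell cannot be told apart.

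**Figure D1:**
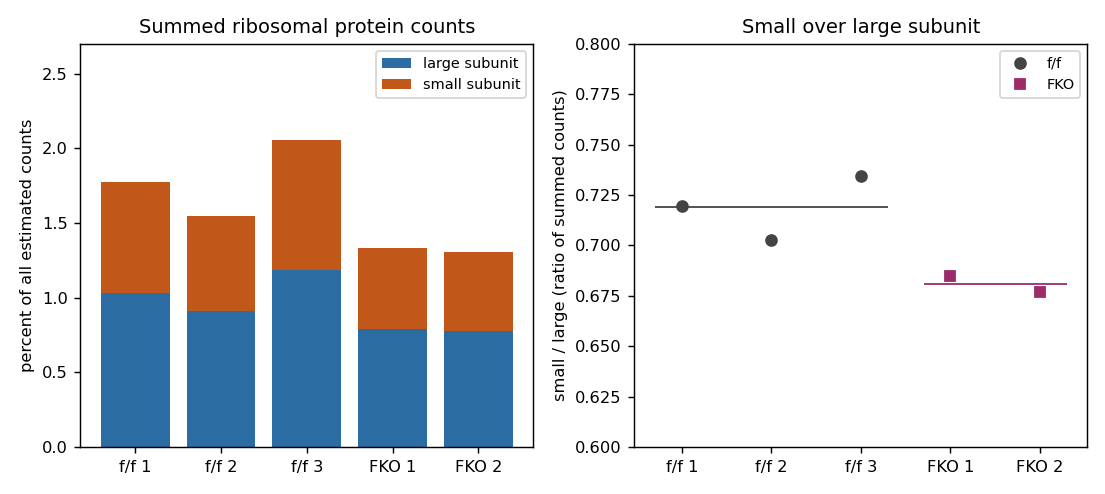
Left, stacked bars of the percent of all estimated counts held by large subunit (bottom) and small subunit genes (top) in each library. Right, the ratio of small to large subunit counts in each library on an axis that starts at 0.6, with group means as lines; both FKO libraries, at 0.685 and 0.677, lie below the 3 f/f libraries.

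The subunits did not differ to the same extent. The ratio of small to large subunit counts was 0.720, 0.703 and 0.734 in f/f, against 0.685 and 0.677 in FKO, so that every FKO library lay below every f/f library. The gap between the group means, 0.719 and 0.681, was 0.038 and the SD among the f/f libraries 0.0158. On FPKM, which divides by transcript length, the ratio was 0.741, 0.724 and 0.745 in f/f, against 0.694 and 0.690 in FKO. Over single genes, the median log2 fold change was -0.17 for 50 large subunit genes tested and -0.34 for 34 small subunit genes tested, against -0.047 for all genes. The large subunit median was -0.10 without f/f replicate 3 and -0.26 without f/f replicate 2, where the small subunit median was -0.26 and -0.43. Gene values were also set relative to each gene's own f/f mean on the log2 scale. The median small subunit gene then stood above the median large subunit gene by 0.0043 and 0.056 in f/f replicates 1 and 3. It stood below by a difference of -0.030 in f/f replicate 2, and further below in FKO, with differences of -0.14 and -0.20. As the f/f libraries set the reference, their differences were held near 0 by construction, while those of FKO were not. The small subunit median stayed below the large subunit median in all 17 alternative settings, with differences from -0.14 to -0.20. Settings that change only the scaling factors shift both medians almost alike, so they could hardly alter this difference. All settings draw on the same 5 libraries. These are descriptions of the libraries, and no p-value is given for a score over the members.

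Few single members passed the test, although most leaned the same way. Of 85 members tested, 1 was called higher and 1 lower, together 2.35% against 25.4% of all genes. At an unadjusted p under 0.05 there were 19 lower, or 22.4%, and 2 higher, where 21.6% of all genes were lower and 18.6% higher. The log2 fold change was below 0 in 69 of the 85, 39 of 50 large and 30 of 34 small subunit genes, against 53.3% of all genes, and the median over the members was -0.22. Both FKO libraries lay below all f/f libraries in 40 members, or 47.1%, where 30.5% of all genes did so. This held for 21 large (42%) and 19 small subunit genes (55.9%), and 4 members lay above in both FKO libraries, where 28.6% of all genes did. The biological coefficient of variation between libraries was 23.0% over all genes, and the standard errors of 73 core members, leaving out Rpl29 and the genes with a copy at their locus, were between 0.13 and 0.21. The number of members below 0 was 67 to 83 over the alternatives, with the highest number for library size alone.

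The number of called members depended on the scaling. With library size alone 20 members were called lower and 1 higher, or 24.7% where 27.2% of all genes were called (20.1% lower). With upper-quartile factors 10 members were called lower, where 16.7% of all genes were. The median of the members lay below that of all genes by a difference of -0.18 in each of the TMM, upper-quartile and library size scalings. A change of scaling shifts both medians almost alike, so it could hardly alter this difference. The difference was -0.11 without f/f replicate 3, -0.27 without f/f replicate 2, -0.11 without FKO replicate 2, -0.10 with the replicate number as a block and -0.29 on log2(FPKM + 1). On log2(FPKM + 0.1), 19 members were called lower, where 20.4% of all genes were. DESeq2 called 8 members lower and 2 higher, or 11.9% of members against 33.6% of all genes (17.6% lower). Leaving out f/f replicate 2, which had the lowest share of members among the f/f libraries, raised the count to 8 lower, or 9.41% of members where 10.8% of all genes were called lower, and leaving out f/f replicate 1 left 0 members called by edgeR, with 10 lower and 2 higher at an unadjusted p under 0.05, while no other tool was run without that library. Over the members, f/f replicate 3 was the highest of the 5 libraries in 55 genes and FKO replicate 2 the lowest in 44, but f/f replicate 2 was the lowest in 23.

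**Figure D2:**
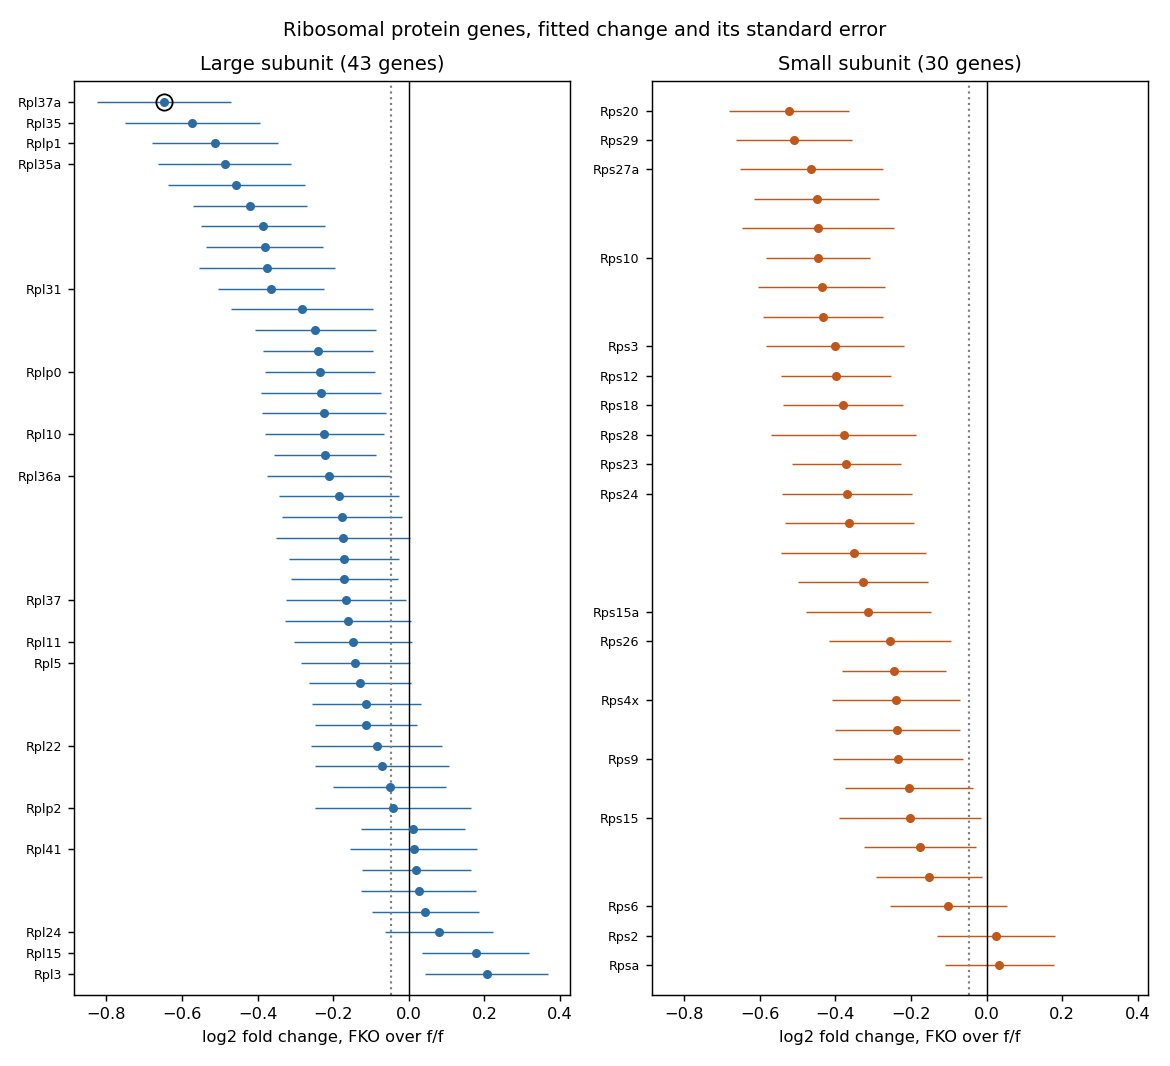
Log2 fold change of FKO over f/f (x axis) with its standard error (bars) for 43 large and 30 small subunit core genes, ordered by value, with symbols for genes named in the text. The dotted line is the median of all genes at -0.047, and the ring marks Rpl37a, the one core gene called. Rpl29 and the genes that share a locus with a copy (Rps27, Rpl34 and Rpl26) are left out.

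Rpl37a, a zinc finger protein of the large subunit (mm10, chr1:72711260-72713813), was the one member called lower. It was at 145.9, 125.7 and 174.1 CPM in f/f, against 100.1 and 89.6 CPM in FKO. Both FKO libraries lay below all f/f libraries, with the f/f libraries spread more widely. The log2 fold change was -0.65 (SE 0.18, edgeR adjusted p = 0.0377). The call ended without f/f replicate 1 (adjusted p = 0.0684) and without FKO replicate 1 or 2 (0.161 and 0.242), with edgeR and a log2 fold change from -0.57 to -0.73 in these 3 fits. With the replicate number as a block it also ended (log2 fold change -0.52, edgeR adjusted p = 0.0563).

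Rpl37rt, a retrogene copy of the large subunit gene Rpl37 (chr5:115102922-115110268), was the one member called higher, and it rested on 1 library. It had 15, 14 and 21 counts in f/f, and 190 and 19 counts in FKO, or 0.333, 0.238 and 0.328 CPM against 4.22 and 0.452 CPM. FKO replicate 1 lay far above all other libraries, and FKO replicate 2 lay within the f/f range in counts and a little above it in CPM. The log2 fold change was 2.96 (SE 0.82, edgeR adjusted p = 0.0388), and without FKO replicate 1 it was 0.59 (edgeR adjusted p = 0.676). Its parent Rpl37 had a log2 fold change of -0.17 (SE 0.16, edgeR adjusted p = 0.475).

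Several members stood just past the threshold. Rps20, of the small subunit, was at 166.9, 152.3 and 196.1 CPM in f/f, against 121.2 and 118.0 CPM in FKO (log2 fold change -0.52, SE 0.16, edgeR adjusted p = 0.0502). Rps29, a small zinc-binding subunit, was at 158.4, 129.3 and 150.2 CPM in f/f, against 108.8 and 96.3 CPM in FKO (-0.51, SE 0.15, edgeR adjusted p = 0.0502). Neither group of libraries overlapped the other in these genes. Rps10 had a log2 fold change of -0.45 (SE 0.14, edgeR adjusted p = 0.0528) and Rpl35, which lies at the exit of the peptide tunnel, one of -0.57 (SE 0.18, edgeR adjusted p = 0.0541). Over the alternatives their adjusted p lay between 0.0122 and 0.325. At the other end of the order, and leaving out the genes with a copy at their locus, the core genes with the highest log2 fold changes were Rpl3, which lies near the peptidyl transferase centre, at 0.21 (SE 0.16), Rpl15 at 0.18 (SE 0.14) and Rpl24 at 0.08 (SE 0.14), and none of these 3 passed (edgeR adjusted p = 0.382, 0.387 and 0.710).

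Rpl29 (chr9:106429411-106431568), a small basic protein on the surface of the large subunit, had the lowest fitted value of the core genes. It had 6075, 8870 and 9129 estimated counts in f/f, and 421 and 2770 in FKO. The FKO libraries lay far below f/f and also far apart from each other, and one of the 3 Rpl29 transcripts, which held 24.3%, 21.7% and 28.9% of its counts in f/f and 24.3% in FKO replicate 2, was listed at 0 in FKO replicate 1. The log2 fold change of -1.93 (SE 0.69) did not pass (edgeR adjusted p = 0.0825), and over the alternatives its adjusted p lay between 0.00256 and 0.150. It passed when FKO replicate 1 was left out (-1.12 on the log2 scale, edgeR adjusted p = 0.0459) and when FKO replicate 2 was (-3.93, edgeR adjusted p = 0.00256).

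By position in the ribosome, edgeR with TMM factors called no member of the groups that follow, while DESeq2 called Rplp1 of the stalk and Rpl35 of the exit tunnel lower (adjusted p = 0.0201 and 0.0192). Other scalings called further members lower. Among them were Rps23 of the decoding region with upper-quartile factors, and Rps23 and Rps27a with library size alone. Of all genes, 17.6% were lower with DESeq2, 16.7% with upper-quartile factors and 20.1% with library size alone. Among the stalk proteins, which recruit the elongation factors, Rplp0, the base of the stalk, was at 580, 568 and 577 CPM in f/f, against 521 and 457 CPM in FKO. Rplp1 was at 410, 356 and 460 CPM in f/f, against 302 and 270 CPM in FKO, and its partner Rplp2 at 290, 216 and 341 CPM in f/f, against 282 and 267 CPM in FKO. The groups did not overlap for Rplp0 and Rplp1, and for Rplp2 they did. The log2 fold changes were -0.23, -0.51 and -0.04 (SE 0.15, 0.17 and 0.21), with edgeR adjusted p = 0.272, 0.0627 and 0.900. Rplp2 changed sign in 3 of 16 alternatives, with values up to 0.13. Rpl5 and Rpl11, which with the 5S rRNA form the particle that also binds MDM2, were at -0.14 (SE 0.14) and -0.15 (SE 0.16), with edgeR adjusted p = 0.504 and 0.520. Rpl5 shares its locus with Fam69a, which had 1294 to 1943 counts in f/f, against 4048 and 4919 in FKO, so that the split of counts between them is uncertain.

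The 8 genes around the peptide exit tunnel ranged from -0.57 to 0.15 with a median of -0.14, and edgeR with TMM factors called none. The upper end is Rpl26, which had 34, 35 and 55 counts in f/f, against 38 and 33 in FKO. It shares its locus with the copy Gm15772, and the sum of both was at -0.26, so its own value is uncertain. Of the small subunit proteins at the mRNA entry channel, Rps3 was at -0.40 and Rps2 at 0.03 (edgeR adjusted p = 0.145 and 0.918). Of the proteins at the mRNA exit, Rps28 was at -0.38, Rps26 at -0.26 and Rpsa at 0.03 (edgeR adjusted p = 0.185, 0.277 and 0.882). The 3 genes of the decoding region, Rps23, Rps15 and Rps27a, ranged from -0.46 to -0.20. Rps6, the substrate of the S6 kinases, was at 317, 262 and 325 CPM in f/f, against 282 and 280 CPM in FKO, and the groups overlapped (log2 fold change -0.10, SE 0.15, edgeR adjusted p = 0.659). Rps27a, which is made as a fusion with ubiquitin, was at -0.46 (SE 0.19, edgeR adjusted p = 0.113). Fau, a fusion with a ubiquitin-like protein, was at -0.65 (SE 0.20, edgeR adjusted p = 0.0530), and Rack1 at -0.15 (SE 0.14, edgeR adjusted p = 0.460). A list of 12 members covers genes whose human counterparts are mutated in Diamond-Blackfan anaemia, a failure of red cell formation, and may be incomplete. Of these 12, 10 were below 0 and the median was -0.25. Among them edgeR with TMM factors called none, while DESeq2 called Rps10 and Rps29 lower (adjusted p = 0.0122 and 0.0151). DESeq2 called 17.6% of all genes lower. Rps19bp1, the binding protein, leaned the other way, at 12.4, 13.9 and 11.8 CPM in f/f, against 16.7 and 17.8 CPM in FKO (0.45, SE 0.15, edgeR adjusted p = 0.0661), and DESeq2 called it (adjusted p = 0.0339).

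Levels are compared between genes in FPKM, which is scaled by transcript length. The highest large subunit genes in f/f were Rplp1 at 917 ± 157, Rpl41 at 769 ± 115, Rplp2 at 674 ± 177, Rpl11 at 518 ± 80.6 and Rpl10 at 475 ± 55.5 FPKM (SD, n = 3). The highest small subunit genes were Rps2 at 583 ± 78.9, Rps12 at 539 ± 64.8, Rps15 at 522 ± 127, Rps9 at 518 ± 101 and Rps18 at 462 ± 62.6 FPKM (SD, n = 3). In both orders each gene differed from its neighbour by less than the larger of their SDs. In FKO, Rpl41 at 664 ± 72.6 FPKM (SD, n = 2) stood above Rplp1 at 549 ± 34.2 FPKM (SD, n = 2), as Rplp1 had the lower mean there. At the low end, Rps15a at 30.6 ± 4.91 and Rps20 at 52.4 ± 9.30 FPKM in f/f (SD, n = 3) were divided by annotated transcripts of 5134 and 3446 bases, far longer than the small subunit median of 629 bases, which lowers FPKM for a given count. Low values were also those of the paralogs Rpl7l1 at 17.6 ± 1.13 and Rps4l at 19.1 ± 1.23 FPKM (SD, n = 3), of Rpl22 at 49.8 ± 10.3 FPKM (SD, n = 3), of Rps19bp1 and Rpl37rt, of Rpl26 and Rpl34, which share a locus with a copy, and of the paralogs near 0 described next.

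None of the 5 well expressed paralogs, Rpl22l1, Rpl36al, Rpl7l1, Rps4l and Rps27l, was called. Rpl22l1, the vertebrate paralog of Rpl22, held 63.6%, 60.4% and 64.6% of the summed FPKM of the pair in f/f, against 57.0% and 64.9% in FKO. This share depends on length, as FPKM divides by 2205 bases for Rpl22 and 480 for Rpl22l1. In counts Rpl22l1 lay below Rpl22 in every library, at 1851, 1672 and 3050 against 4858, 5025 and 7675 in f/f. In FKO it had 1295 and 1642 counts, against 4485 and 4083 for Rpl22. Rpl36al, an expressed retrogene of Rpl36a, held 41.1%, 41.2% and 40.7% in f/f and 42.7% in both FKO libraries (f/f SD 0.236 percentage points). Rpl7l1 held 4.25% to 5.23% in f/f, against 5.07% and 5.31% in FKO, and Rps4l, beside Rps4x, held 4.03% to 5.64% in f/f, against 5.03% and 6.96% in FKO. Rps27l, a target of p53 in human cells, had a log2 fold change of -0.20 (SE 0.15, edgeR adjusted p = 0.349). The paralogs of muscle and testis were near 0: Rpl10l had 0 counts in all 5 libraries, where a count of 0 allows up to 3 counts or 0.0468 to 0.0713 CPM, Rpl39l had 0, 4 and 4 counts in f/f and 0 in both FKO libraries, and Rpl3l had 0, 5 and 8 in f/f, against 2 and 0 in FKO. With Rpl32l, which had at most 5 counts, these were the 4 members too low to test.

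At 3 loci the table divides counts between a member and a copy, so the values of the single genes there are uncertain. Sequences were compared only for Rps27 and Rps27rt. Rps27, a zinc-binding small subunit protein, lies on chr3, and the table places the retrogene Rps27rt at the same interval (chr3:90212667-90213647), although GENCODE vM21 annotates Rps27rt on chromosome 9. The coding sequences of the 2 genes, 255 bases each on GRCm38 (mm10), differ at 0 bases, so one run, shown because reads from it fit both genes, stands for both (Rps27 spliced from exons within chr3:90212725-90213615, minus strand; Rps27rt within 1 exon at chr9:114982453-114982707, minus strand; all in lower case because no base sets them apart).
Rps27 and Rps27rt: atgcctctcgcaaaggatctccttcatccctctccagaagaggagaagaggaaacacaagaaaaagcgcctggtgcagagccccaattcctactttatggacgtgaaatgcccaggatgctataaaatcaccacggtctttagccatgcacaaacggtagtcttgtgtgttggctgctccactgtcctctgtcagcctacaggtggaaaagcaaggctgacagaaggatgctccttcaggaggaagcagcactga

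The table gave nearly all counts of this pair to Rps27 in 4 libraries and to Rps27rt in the other. Rps27 had 3871, 3726 and 132 counts in f/f, against 2592 and 2291 in FKO, and Rps27rt had 112, 71 and 6399 in f/f, against 64 and 77 in FKO. Rps27rt thus held 98.0% of the pair in f/f replicate 3 and between 1.87% and 3.25% elsewhere. Fitted alone, Rps27 was at 0.15 (SE 1.08) and Rps27rt at -4.41 (SE 1.94) on the log2 scale, and neither passed (edgeR adjusted p = 0.929 and 0.135). The sum of both was 88.3, 64.6 and 102 CPM in f/f, against 59.0 and 56.3 CPM in FKO, with a log2 fold change of -0.56 (SE 0.21, edgeR adjusted p = 0.0899). So the sum lay lower in both FKO libraries, like Rps20 and Rps29, and neither gene on its own shows it.

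At the other loci the copy took most counts in every library. Rpl34-ps1 held 91.9% to 94.0% of the counts it shares with Rpl34, and the pair was at 94.0, 75.8 and 96.8 CPM in f/f, against 72.6 and 65.6 CPM in FKO (log2 fold change of the sum -0.36, SE 0.16, edgeR adjusted p = 0.140). Gm15772 held 99.5% to 99.7% of the counts it shares with Rpl26, and the pair was at 202, 177 and 214 CPM in f/f, against 172 and 158 CPM in FKO (-0.26, SE 0.15, edgeR adjusted p = 0.235). Both sums lay lower in FKO than in all f/f libraries, whereas Rpl26 alone was at 0.15 (SE 0.39). Counted in full, 38 members overlap another gene of the table, 25 of them a gene for a small nucleolar RNA or a microRNA, which lie in introns of ribosomal protein genes, and 10 overlap a gene that reached 200 counts. Whether the counting used strand is not stated.

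**Figure D3:**
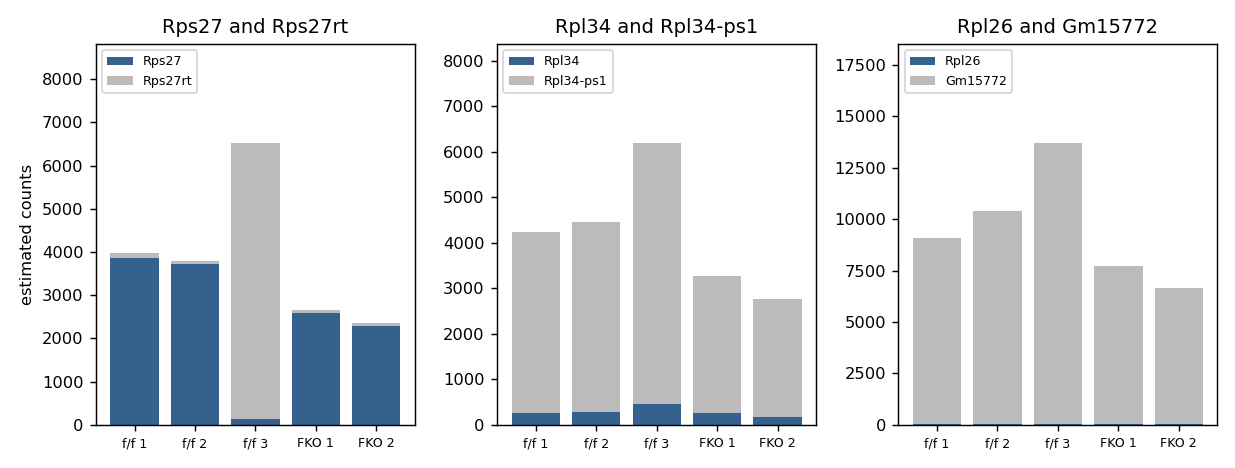
Estimated counts (y axis) of 3 members (blue) and of the copy at the same locus (grey), stacked, in each library. Rps27rt takes 98.0% of the pair in f/f replicate 3 and at most 3.25% in the other 4 libraries, while Rpl34-ps1 and Gm15772 take most counts throughout.

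The table lists single transcripts, so the use of transcripts within a gene could be set beside the sums. Of 15 members with at least 2 transcripts past the filter, 1 was called by edgeR's F test of transcript use, where 5.68% of 3997 genes were. This was Rpl31, a large subunit protein at the peptide exit (chr1:39367851-39371910). Its transcript variant 2 held 12.5%, 13.2% and 14.2% of the gene's counts in f/f, against 3.62% and 4.99% in FKO. Variant 1 held 4.54%, 4.93% and 6.04% in f/f, against 2.52% and 2.05% in FKO, and variant 3, the main form, held 83.0%, 81.9% and 79.7% in f/f, against 93.9% and 93.0% in FKO. All 3 variants had groups that did not overlap (edgeR F test, adjusted p = 0.00236). Variant 2 is 72 bases longer than variant 3 and variant 1 is 214 bases longer, which equals a longer first exon (chr1:39367935-39368006) and a kept first intron (chr1:39367935-39368148) in GENCODE vM21. Both lie before the start codon at position 39368149, so these differences lie before the coding sequence. The F test held without each f/f library in turn (edgeR adjusted p from 0.0105 to 0.0158). The Simes test of the main fit did not call Rpl31 (adjusted p = 1.00). It called none of the 15 members, but also only 40 of all 3997 genes, so a count of none says little about the members.

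Rps24, a small subunit protein whose mRNA is spliced in different ways at its end, had shares that did not overlap between the groups but did not pass the test. Its last codons depend on short exons between exon 4 and the last exon. The ends of the coding sequence are given from GENCODE vM21 on GRCm38, plus strand, starting with the last 24 bases of exon 4 (chr14:24493470-24493493), with the short exon that follows in capitals; variant 2 has none and continues into the last exon up to its stop codon.
Rps24 variant 1: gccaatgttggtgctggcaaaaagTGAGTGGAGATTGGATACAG
Rps24 variant 2: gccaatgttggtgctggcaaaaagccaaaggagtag
Rps24 variant 3: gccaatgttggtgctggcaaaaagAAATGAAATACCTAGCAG

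In variant 1 a stop codon opens the 20-base exon (chr14:24495430-24495449) and the coding sequence holds 130 codons. Variant 3 enters an 18-base exon first (chr14:24494052-24494069) and holds 131 codons, and variant 2 skips both and holds 133. Variant 1 held 63.1%, 64.9% and 53.9% of Rps24 counts in f/f, against 41.2% and 39.0% in FKO. Variant 2 held 21.5%, 18.7% and 24.5% in f/f, against 44.1% and 41.7% in FKO. The groups did not overlap for either, and variant 2 had 1.99 times its f/f share in FKO. Variant 3 held 15.5%, 16.5% and 21.7% in f/f, against 14.7% and 19.3% in FKO, with overlapping groups. The F test gave an edgeR adjusted p = 0.0777 for Rps24. Without f/f replicate 3, whose shares lay nearest to FKO, it passed (edgeR adjusted p = 0.0129), and without any one of the other libraries it lay between 0.159 and 0.340. The sum of all Rps24 counts was at 237, 212 and 289 CPM in f/f, against 197 and 184 CPM in FKO (log2 fold change -0.37, SE 0.17, edgeR adjusted p = 0.156). The variants share most of their sequence, so their counts are estimates that rest on few distinguishing reads, and cell types that splice Rps24 differently were not told apart from adipocytes.

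**Figure D4:**
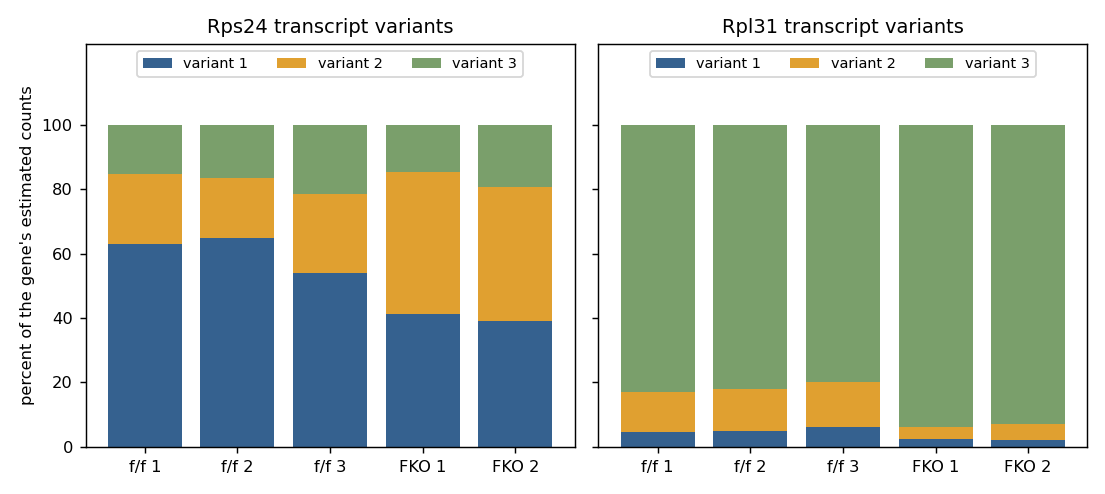
Percent of each gene's estimated counts (y axis) held by its 3 transcript variants in every library, for Rps24 (left) and Rpl31 (right). Rps24 variant 2 holds at most 24.5% in f/f, against 44.1% and 41.7% in FKO, and Rpl31 variants 1 and 2 hold smaller shares in FKO than in f/f.

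Shorter members lay lower in FKO than longer members. Across 73 core genes, leaving out Rpl29 and the 3 genes with a copy at their locus, Spearman's rho between transcript length and log2 fold change was 0.33 and Pearson's r with the log of length was 0.24, as a description across genes that share the same 5 libraries. Over all genes tested, rho was 0.053. In the 24 shortest core genes, of 327 to 588 bases, the median log2 fold change was -0.37, with -0.24 for 13 large and -0.38 for 11 small subunit genes. In the 24 genes of middle length it was -0.21, with -0.17 for 14 large and -0.34 for 10 small subunit genes. In the 25 longest it was -0.15, with -0.14 for 16 large and -0.24 for 9 small subunit genes. The small subunit median thus lay below the large subunit median in every length range, and each of these subgroups holds under 20 genes. Other genes in the same length ranges with a mean of at least 47.8 CPM in f/f, the lowest mean among these core genes, had medians of 0.24, 0.20 and 0.12 (46, 88 and 2601 genes). Without that limit on the level, the other genes in these ranges had medians of -0.15, -0.20 and -0.05 (225, 504 and 11344 genes), and the middle one was close to the -0.21 of the core genes.

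**Figure D5:**
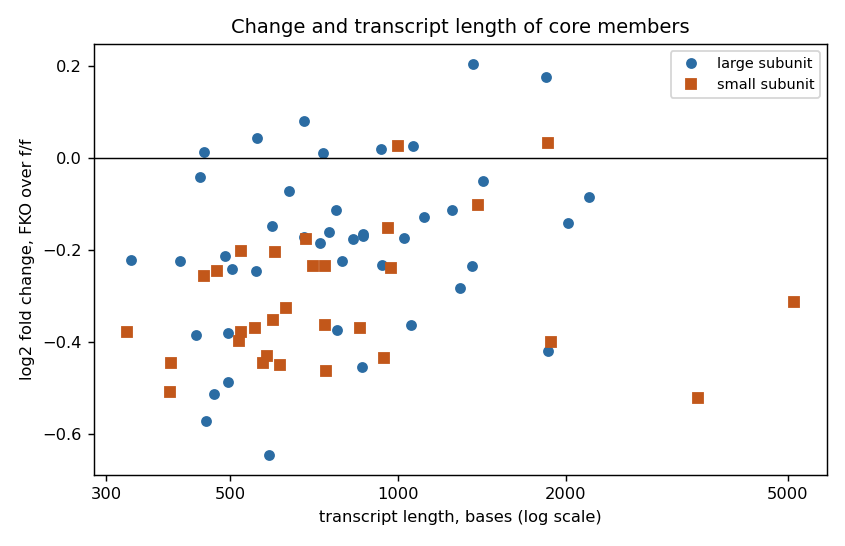
Transcript length in bases (x axis, log scale) against the log2 fold change of FKO over f/f (y axis) for 43 large (circles) and 30 small subunit core genes (squares). Points lean upward to the right with wide scatter, with rho at 0.33 over 73 genes.

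Promoters of the members were read from the RefSeq table of GRCm38.p6, which spans 250 bases before to 50 bases after each annotated start and matched 68 of the 89 members. A run of at least 8 pyrimidines that touches the stretch from 10 bases before to 20 bases after the start, on the gene's strand, was found in 29 member promoters, or 42.6%, and in 16.7% of all 27025 promoters. It was present in 16 of 34 core large and 10 of 23 core small subunit promoters. The letters CCGGAAG, the core of ETS factor motifs, occurred on either strand anywhere in the 300 bases in 36.8% of member promoters and in 9.12% of all. TATAAA within the 50 bases before the start, on the gene's strand, occurred in 1.47% of member promoters and 2.88% of all. The 20 bases on each side of the start are shown for 3 core genes of lowest and 3 of highest log2 fold change. They were ranked among core genes with an entry, leaving out Rpl29 and the 3 genes with a copy at their locus. The pyrimidine run is in capitals where there is one, and the start sites of both ends are set side by side.
Rpl37a (chr1:72711240-72711279, plus strand): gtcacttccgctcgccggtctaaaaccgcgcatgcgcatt
Rpl35 (chr2:39005112-39005151, minus strand): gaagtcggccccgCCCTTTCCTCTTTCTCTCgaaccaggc
Rpl35a (chr16:33056433-33056472, plus strand): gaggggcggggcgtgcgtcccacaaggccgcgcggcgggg
Rpsa (chr9:120127746-120127785, plus strand): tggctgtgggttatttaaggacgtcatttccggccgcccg
Rpl24 (chr16:55966255-55966294, plus strand): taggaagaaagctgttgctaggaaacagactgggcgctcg
Rpl15 (chr14:18270967-18271006, minus strand): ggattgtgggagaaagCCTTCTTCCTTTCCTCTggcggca

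A run was present in 1 gene of each end, Rpl35 with 18 pyrimidines and Rpl15 with 17, so in these 6 windows its presence did not go with the direction. Annotated starts can lie some bases away from the true start, and a missing run says only that these letters are not in this window.

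Lists of genes that act with the ribosomal proteins had higher medians than the members, whose median lay at -0.18 relative to all genes. Of 78 mitochondrial ribosomal protein genes (Mrpl and Mrps), which build the separate ribosome of mitochondria, 18 were called higher and 5 lower, or 29.5% against 25.4% of all genes, with a median log2 fold change of 0.30 (0.30 for the large and 0.27 for the small subunit), or 0.34 relative to all genes. With library size alone that median was 0.07, or 0.34 relative to all genes, with 10 called higher and 7 lower. The relative value could hardly differ, as scaling shifts a list and all genes almost alike. Of 36 translation initiation genes, 4 were called higher and 1 lower, with a median of 0.14: the eIF3 subunits Eif3c and Eif3a at 0.64 and 0.67 and the exchange factor subunit Eif2b5 at 0.45 were higher, and the eIF3 subunit Eif3f at -0.60 was lower (edgeR adjusted p = 0.0174, 0.0221, 0.0425 and 0.0405). Of 12 elongation and termination genes, Eef1a2, the elongation factor form of muscle and neurons, and Gspt1, a release factor, were called higher and none lower. Of 18 other genes whose mRNAs carry a TOP element, 1 was called, Eif3f, and the median was -0.07. Eef1b2, an elongation factor subunit of the same list, was at -0.55 (SE 0.17, edgeR adjusted p = 0.0569).

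Among 14 genes that govern TOP mRNAs, 3 were called higher and none lower, with a median of 0.28. Rps6kb1, the S6 kinase, was at 70.4, 70.7 and 62.4 CPM in f/f, against 129 and 131 CPM in FKO (log2 fold change 0.94, SE 0.13, edgeR adjusted p = 0.00485). Eif4ebp1, the translation repressor 4E-BP1, was at 0.61 and Mtor, the kinase above both, at 0.78 (edgeR adjusted p = 0.0229 and 0.0474). Myc, a transcription factor of the same list, lay on the other side at -0.50 and did not pass (SE 0.19, edgeR adjusted p = 0.0932). Of 49 ribosome biogenesis genes tested, 4 were called higher and none lower, with a median of 0.13: Riok2, a kinase of small subunit maturation, at 0.85, Mdn1, an ATPase of large subunit assembly, at 0.76, Nop2 at 0.60 and Nop14 at 0.51 (edgeR adjusted p = 0.0126, 0.0143, 0.0194 and 0.0494). Of 29 genes for RNA polymerases I and III and their regulators, Polr1c and Maf1, a repressor of polymerase III, were called higher. Of 11 genes for chaperones of new ribosomal proteins, Tsr2, the escort of RPS26, was lower, at 23.9, 23.8 and 25.9 CPM in f/f, against 14.5 and 13.0 CPM in FKO (log2 fold change -0.83, SE 0.14, edgeR adjusted p = 0.00845). Its client Rps26 was at -0.26 (SE 0.16, edgeR adjusted p = 0.277), and Heatr3, an importer of RPL5, was called higher at 0.45 (edgeR adjusted p = 0.0477).

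The called share was 13.9% for initiation, 16.7% for elongation and termination, 5.56% for the other TOP mRNAs, 21.4% for the TOP mRNA regulators, 8.16% for biogenesis, 6.9% for the polymerases and 18.2% for the chaperones. Each lay below the 25.4% of all genes. The direction of several of these medians turned with the scaling. With library size alone the medians were -0.08 for initiation, -0.21 for elongation and termination, -0.10 for biogenesis and -0.11 for the polymerases, with 0 higher and 5 lower initiation genes, 1 higher and 2 lower elongation and termination genes, 2 higher and 2 lower biogenesis genes and 0 higher and 1 lower polymerase gene called. Relative to all genes they stood at 0.19, 0.06, 0.17 and 0.16 there and at 0.19, 0.06, 0.18 and 0.17 with TMM factors. This near match follows from the scaling, which shifts a list and all genes almost alike. The median of the TOP mRNA regulators stayed above 0 (0.06 with library size alone), with Rps6kb1 and 2 others called with TMM factors and 1 gene higher and 1 lower with library size alone. Macrophage, mesothelial and progenitor markers moved in the same comparison, as given above, and their part in these lists was not tested.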

How the data were processed

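RNA from 5 libraries (3 f/f, 2 FKO) was sequenced after poly-A selection with a TruSeq kit, per the labels' protocols. The authors deposited 1 table of 36779 RefSeq transcripts with estimated counts and FPKM per sample, per the file headers; 1 empty row was left out. Per the submitters' processing notes, which give neither roles nor an order, the genome was mm10 and the tools were StringTie 1.3.4d, Bowtie2, HISAT and HISAT2 2.1.0. Estimated counts as deposited are whole and unscaled between samples, and the deposited FPKM values are scaled by transcript length and library size.

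Counts were summed per gene identifier and tested in R 4.3.3 with edgeR 4.0.16 (quasi-likelihood, TMM, filterByExpr, genotype as the sole term, Benjamini-Hochberg adjustment over all genes tested, threshold 0.05). The standard error is the log2 fold change over the root of the F statistic. For transcript use, diffSpliceDGE of edgeR was run over 3997 genes. The tests were also run on simulated counts, in which all genes varied alike between libraries, and by less than the 23.0% found here. That run therefore does not measure how well the tests work on these libraries. Fold changes are FKO over f/f on the scale of CPM with TMM factors, and 0 columns of sample values were left unused. Libraries of one group differed beyond counting noise (median chi-square per gene 3.71 to 15.5, where noise alone gives 0.455). The floor of 3 counts covers counting error only.

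Alternatives were RLE and upper-quartile factors, library size alone, no filter, a stricter filter (a mean of 10 counts in each group and 1 CPM), DESeq2 1.42.0, limma-voom and limma 3.58.1 on log2(FPKM + 0.1) and log2(FPKM + 1), the replicate number as a block, and each library left out. Genes named are called members, the 5 highest and 3 lowest members per subunit by FPKM, paralog pairs, stalk and 5S particle genes, Rps6, Rps27a, Rps19bp1, Rps24, members called for transcript use, Prmt1, and the genes of lowest p, at most 4, in each other list. The remaining members were named after their values were seen. The members, lists and tests were chosen with earlier results of these data known. Sequences are from GENCODE vM21 on GRCm38 and from RefSeq promoters of GRCm38.p6, and no protein sequence was used here. Values of some single genes are not reported here.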

Additional observations from a re-analysis of the deposited data

How the results depend on the processing

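With upper-quartile factors 10 members were called lower and the large subunit median was -0.30. With library size alone 20 members were called lower, 1030 of all genes were called higher, and the medians were -0.45 for the members, -0.40 for the large and -0.57 for the small subunit. On log2(FPKM + 0.1) there were 19 members lower and 0 higher, 1088 genes higher and 2962 lower, and medians of -0.44, -0.39 and -0.55. On log2(FPKM + 1) there were 18 members lower and 0 higher, 1051 genes higher, and medians of -0.43, -0.39 and -0.54. There 21.2% of members were called, against 25.2% of all genes. The stricter filter gave 5 members lower and 1 higher, or 7.14% of members where 27.3% of all genes were called. DESeq2 gave 8 lower and 2 higher (11.9% against 33.6% of all genes), and limma-voom 2 lower and 0 higher (2.35% against 23.1%). Without the paralogs and Rps19bp1, 0 members were higher (the excluded Rpl37rt was the one called). Leaving out one library at a time gave 0 to 8 members lower and 0 to 1 higher, 485 to 1690 genes higher and 424 to 1759 lower, and 1 to 2 members called for transcript use, where the Simes test gave 0. On summed FPKM the f/f minus FKO gap in share was 1.49 percentage points for the members, 0.803 for the large and 0.689 for the small subunit, against 0.475, 0.258 and 0.217 on counts, and all 3 gaps kept their direction in every setting run, from 0.156 upward.

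The replicate numbers were fitted as a block, although they do not pair the libraries: same-numbered deviations correlated at 0.0889 and -0.12 over only 2 pairs. With this replicate block 1 member was called lower (Rpl29) and 0 higher. Rplp2 turned to 0.13 with the replicate block, 0.11 without f/f replicate 3 and 0.00071 without FKO replicate 2, with leave-one-out values from -0.21 to 0.11, and Rpl22l1 to 0.00014 without FKO replicate 1, with leave-one-out values from -0.44. The gap between the subunit medians kept its direction in 17 of 17 alternatives, and all subunit medians stayed below 0. The settings that change only the scaling factors could hardly alter this gap, as they shift both medians almost alike. Summing copies at one locus, counting them in the share and leaving out libraries for the share were chosen after seeing the data, and the first left 1 member lower and 1 higher. The cause of these differences between settings was not tested. With 2 FKO libraries, a fit without one of them leaves a lone library that is assumed to vary like the f/f group. The counts at loci with copies, and of transcripts within a gene, are estimates whose own error is not in the table.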
